A study of Homo sapiens with 16 samples.

Results

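The G2 and mitosis genes described here are 41 human genes that drive or carry out the passage of cells from G2 through chromosome segregation to cytokinesis. They were chosen by name and not by a rule on their measured values, but with earlier results of these data known. Their gene symbols in the deposited FPKM table were matched by Ensembl identifier to the deposited count table. All 41 were found among 63677 gene identifiers, and all 41 were among the 17464 genes with enough reads to be tested. CDCA3 carried a second identifier without reads, which was not used.

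The 16 libraries of poly(A) RNA come from 2 lines of human colon cancer cells and form 8 groups of 2, numbered I and II. SW480 is a line from a primary colon adenocarcinoma and SW620 a line from a lymph node metastasis of the same patient. Each line was sequenced as parental cells, as cells transduced with an empty vector, and as cells transduced with estrogen receptor beta (ERB, gene ESR2), a transcription factor that binds estradiol. SW620 cells with ERB were sequenced untreated, after 24 h in dimethyl sulfoxide (DMSO), a common solvent, and after 24 h with 10 nM estradiol (E2). All cells grew in DMEM with fetal bovine serum. The labels name no untreated culture that accompanied the treated ones and no solvent for estradiol, and the promoter that drives ERB and whether transduced cells were a clone or a pool are not given in the sources used here. Nothing in the labels says that libraries I and II came from separate cultures, so p-values measure only the spread between these libraries.

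Mitosis is started by the kinase CDK1 bound to cyclin A or B, which accumulates through G2 and is helped by the Polo-like and Aurora kinases. Once all chromosomes are attached to the spindle, the spindle checkpoint releases CDC20, which turns on the anaphase-promoting complex, and securin and cyclin B are destroyed. Transcripts of these genes are low in resting cells and in G1 and peak in G2 and M, so that they are widely used as a marker of proliferation in tumours. Their promoters are held off in resting cells by the DREAM complex and switched on in G2 by B-MYB and FOXM1, through a CCAAT box bound by NF-Y and an element called the cell cycle genes homology region (CHR), bound by the MuvB core.

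A promoter entry from RefSeq (build GRCh38.p14) was matched by symbol for 34 of the 41 genes, and not for FOXM1, TTK, TPX2, AURKA, UBE2C, BUB3 and BIRC5. In the 250 bases before the start, on either strand, the CHR letters TTTGAA occurred in 19 of 34 promoters (55.9%), against 13.6% of 27305 promoters of all genes searched in the same window. The CCAAT letters occurred in 28 (82.4%), against 33.0%, and both together in 17, against 4.85%. A second form of the CHR, TTCGAA, occurred in 1, that of CCNF, against 1.20%. Such a match describes the letters in this window and is neither a shown binding site nor a cause of the values below. The promoters of 5 members are shown to let these letters be seen in place: CDC20 and PTTG1, which fell after DMSO by the test on unadjusted counts, and CKS2, KIF11 and MKI67, which did not pass it. Each run starts 140 bases before the RefSeq start and ends at the start or before the first base that the GENCODE 29 annotation of GRCh38 puts in an exon. They are written 5′ to 3′ on the gene's strand, with CHR and CCAAT letters of either strand in capitals; where 2 matches run into each other their shared letters are written once.
CDC20 (chr1:43358841-43358954, plus strand): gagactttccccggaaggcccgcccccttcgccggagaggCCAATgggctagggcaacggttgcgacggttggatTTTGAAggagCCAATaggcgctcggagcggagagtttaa
PTTG1 (chr5:160421715-160421821, plus strand): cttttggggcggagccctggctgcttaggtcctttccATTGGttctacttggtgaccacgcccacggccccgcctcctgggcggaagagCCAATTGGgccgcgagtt
CKS2 (chr9:89311055-89311194, plus strand): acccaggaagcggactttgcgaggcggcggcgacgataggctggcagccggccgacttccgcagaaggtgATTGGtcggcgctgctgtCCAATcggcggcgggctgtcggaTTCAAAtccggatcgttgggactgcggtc
KIF11 (chr10:92592990-92593129, plus strand): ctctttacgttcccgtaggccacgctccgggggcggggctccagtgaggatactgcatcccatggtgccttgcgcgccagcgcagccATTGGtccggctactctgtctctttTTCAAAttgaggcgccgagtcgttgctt
MKI67 (chr10:128126424-128126563, minus strand): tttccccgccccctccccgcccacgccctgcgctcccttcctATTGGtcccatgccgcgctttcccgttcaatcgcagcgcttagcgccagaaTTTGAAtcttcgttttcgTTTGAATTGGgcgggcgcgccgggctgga
In this printed stretch CDC20, CKS2, KIF11 and MKI67 showed both elements, and PTTG1 showed the CCAAT letters alone.

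Library totals ran from 12743940 to 18948283 counts, and the 41 genes together took 32337 to 156915 of them. ESR2 had 100 to 187 reads in each of the 8 libraries labelled with ERB and 0 to 4 in each of the others. Libraries differed in a trend with transcript GC content: the gap between the tenth of genes lowest in GC and the tenth highest ran from -3.34 (log2, SW480 ERB I) to 2.82 (SW480 parental II), and was 1.75 and 2.56 in the DMSO libraries and -0.21 and -0.82 in the estradiol libraries. The members have a median transcript GC content of 42.6% (35.3 to 57.9%), against 49.0% over 17123 tested genes. Member counts or medians of each comparison below are therefore given both on counts as deposited and with offsets. The offsets take out the fitted dependence on transcript GC content and length in each library. Among 300 genes high in parental SW480, the median level was 1.41 to 2.02% of parental SW480 in the SW620 libraries, but also up to 2.20% in the libraries labelled SW480 empty vector and 17.1 and 21.0% in those labelled SW480 ERB; these libraries go against their line label and are called by it only as labelled. Summed markers of colon epithelium stood at 3193 to 15727 CPM (counts scaled to library size), most of it from KRT8 and KRT18. CDX1 read 0 in every library, KRT20 at most 0.464 CPM and LGALS4 at most 0.974 CPM. Summed markers of other cell types stood at 2.26 to 11.9 CPM for fibroblast, 0.598 to 4.75 for leukocyte and 0.534 to 2.48 for endothelial markers.

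The 41 genes together took a smaller share of the reads in all 4 SW620 libraries treated with DMSO or estradiol than in any untreated one. Their reads made up 0.283 and 0.295% of the library total after DMSO and 0.238 and 0.213% after estradiol. In the 6 untreated SW620 libraries (parental, empty vector and ERB) they made up 0.479 to 0.631%, and in the 6 libraries labelled SW480 0.337 to 0.828%. On the scale of log2 CPM against the mean of the 16 libraries, the median member stood at -0.31 and -0.24 after DMSO, -1.06 and -1.17 after estradiol and 0.13 to 0.60 in untreated SW620. With the GC and length trend removed it stood at -0.95 and -0.97 after DMSO, -1.18 and -1.15 after estradiol and 0.14 to 0.50 in untreated SW620. The SD of these medians within the 8 groups was 0.09 with the adjustment and 0.47 without it. In bulk RNA, fewer cells in G2 and M and less of these transcripts per cell cannot be told apart. Treated and untreated libraries differ in treatment, in time and in whatever else set them apart, and these cannot be told apart either.

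**Figure D1:**
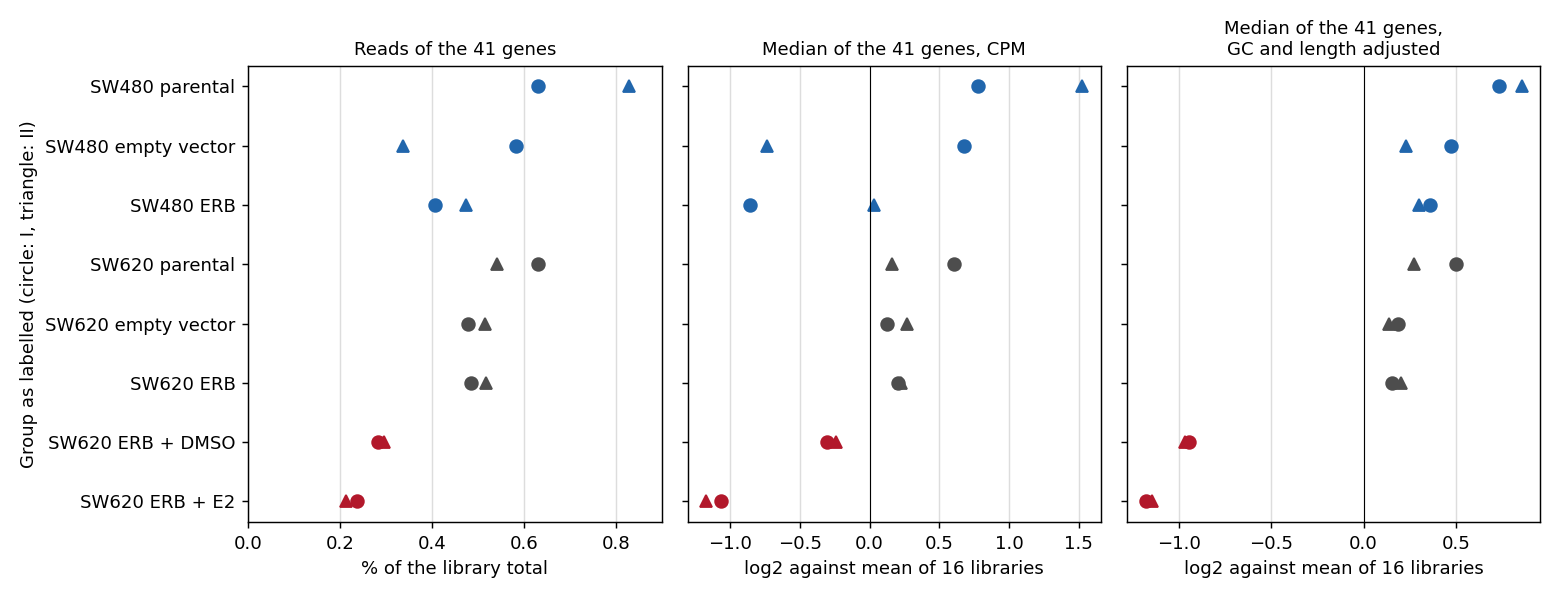
Level of the 41 genes in each of the 16 libraries, by group as labelled (circle, library I; triangle, library II; red, treated SW620; grey, untreated SW620; blue, labelled SW480). Left, their share of the library total in percent; middle, the median gene in log2 CPM against the mean of 16 libraries; right, the same after removal of the GC and length trend, where the 4 treated libraries sit between -1.18 and -0.95 and all others at 0.14 or above.

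Gene by gene, 22 of the 41 were lower in all 4 treated libraries than in any of the 6 untreated SW620 libraries in CPM, and 32 of 41 in adjusted CPM. Over all genes tested, 12% were lower in this way in CPM and 15.9% in adjusted CPM, and 11.3% and 19.5% were higher. None of the 41 was higher in all 4 treated libraries on either scale. The 9 members whose adjusted values overlapped were CDK1, TTK, CENPE, NDC80, NUF2, KIF11, HMMR, ASPM and ECT2, all with a transcript GC content below 45%. This pooling of the treated groups and the names were chosen after the values were seen.

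**Figure D2:**
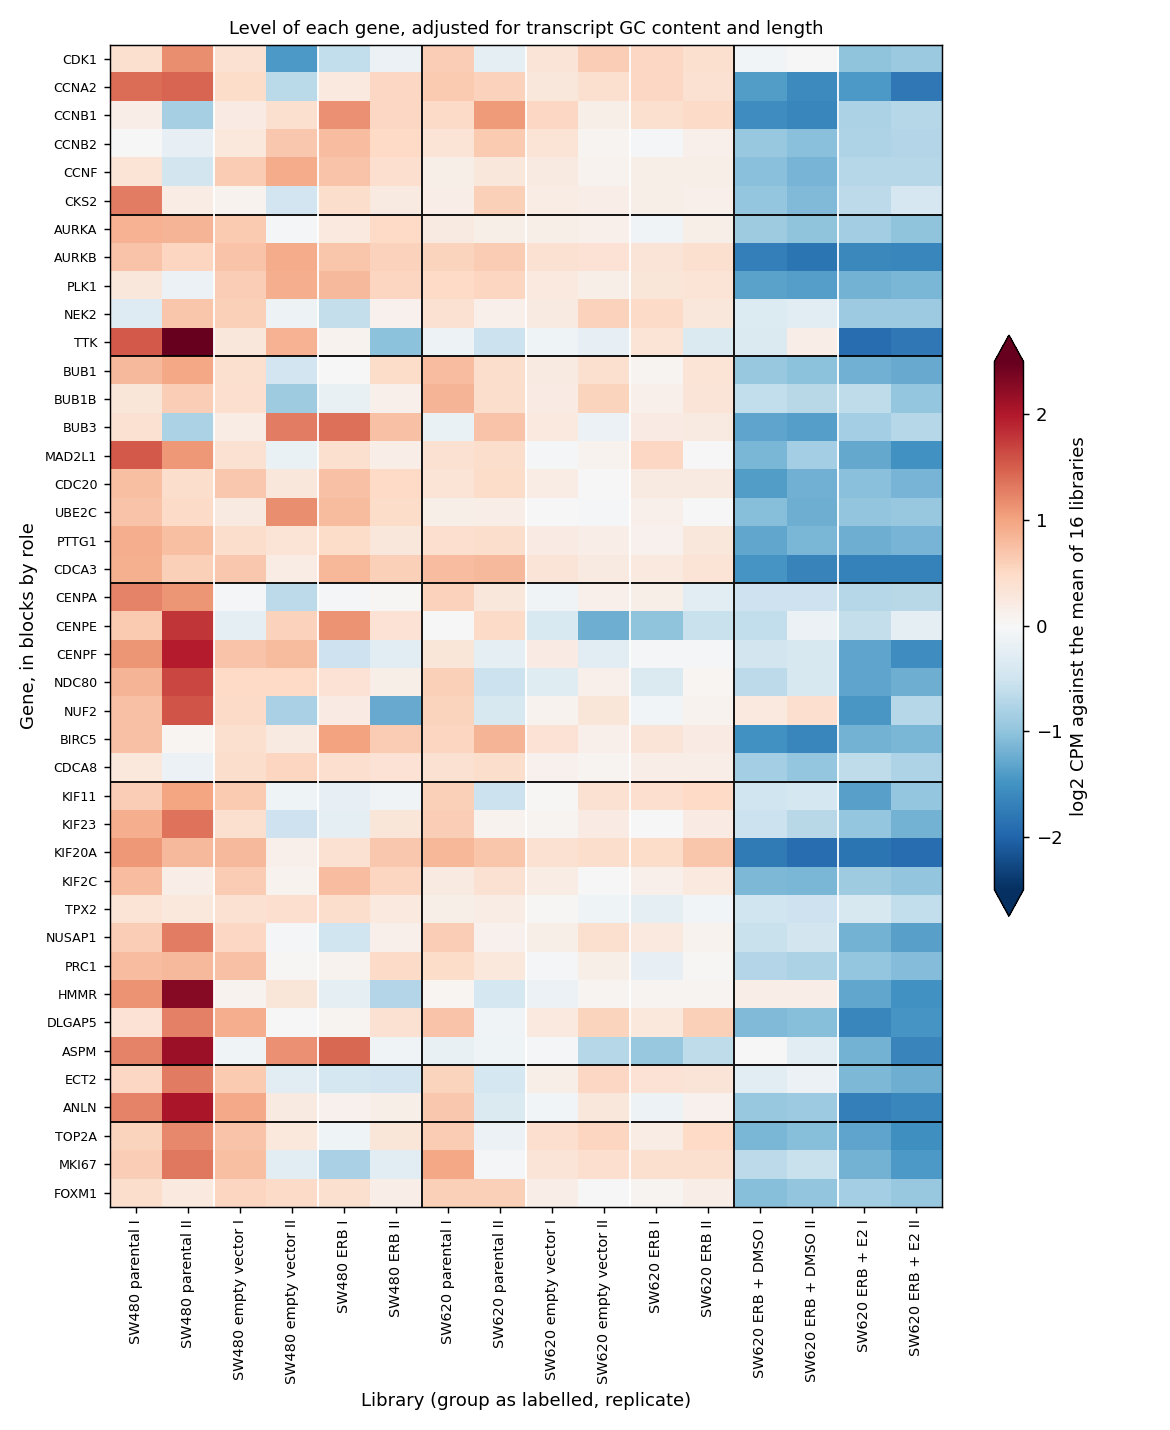
Adjusted log2 CPM of each of the 41 genes against its mean over 16 libraries, with genes in 7 blocks by role from CDK1 and cyclins (top) to TOP2A, MKI67 and FOXM1 (bottom) and libraries in columns by group. The last 4 columns, DMSO and estradiol, are blue (lower) for 32 genes below every untreated SW620 library; CENPE rests on 0 to 38 reads outside the parental SW480 libraries.

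FPKM values are scaled by transcript length, which helps to compare genes, but were not adjusted here for GC content. The GC trend was 0.64 and -0.90 in the 2 parental SW620 libraries. By FPKM, parental SW620 cells expressed CCNB1 most, at 703 ± 30 FPKM (SD, n = 2). It was followed by UBE2C at 374 ± 32, CDC20 at 353 ± 68 and AURKB at 322 ± 38. The 2 libraries of CDC20 overlapped those of UBE2C and those of AURKB, while UBE2C and AURKB did not overlap. At the other end stood TTK at 1.57 ± 1.7, HMMR at 1.05 ± 0.86, ASPM at 0.187 ± 0.13 and CENPE at 0.138 ± 0.053 FPKM. All of these have a low transcript GC content (35.3 to 40.8%), and the part of GC content in this order was not tested. Over all 16 libraries CENPE had 551 reads, NUF2, a kinetochore subunit named after its values were seen, 1318, ASPM 2014, TTK 2133 and HMMR 2970, the fewest of the 41.

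Whether ERB itself moved these genes was asked by comparing SW620 cells with ERB and with empty vector. None of the 41 was called (edgeR quasi-likelihood test, Benjamini-Hochberg adjustment over 17464 genes, adjusted p under 0.05), against 0.00573% of genes higher and 0% lower. No member had an unadjusted p under 0.05 in this test, and DESeq2 called 0. The median log2 fold change of the members was 0.00 on counts as deposited and with offsets, and the members ranged from -0.41 (ASPM) to 0.65 (CENPE, on 2 to 5 reads per library). The CCNB1 level was 584 and 543 CPM in vector cells and 566 and 629 CPM in ERB cells (log2 fold change 0.08 ± 0.32, SE). PLK1 read 318 and 239 against 304 and 306 CPM, and MKI67, the Ki-67 antigen of cycling cells, 176 and 208 against 192 and 192 CPM. The groups overlapped for all 3 genes. They did not overlap for CENPE and ASPM, for CCNB2, cyclin B2 (142 and 138 against 113 and 133 CPM), and for BUB3, a checkpoint protein (165 and 185 against 197 and 199 CPM). The empty vector against parental SW620 also gave 0 called members on counts as deposited, where 0% of genes were called in either direction. No member had an unadjusted p under 0.05, DESeq2 called 0, and the median was -0.22. With offsets 0 members were called. In SW620 libraries alone with offsets, 1 gene of chromosomes and transcription and 1 of the spindle checkpoint and anaphase-promoting complex were called lower. The share of all genes called in these fits with offsets is not given here. The largest differences without overlap were those of CENPE (15 and 4 reads in parental cells, 3 and 2 with empty vector), CDCA3 (log2 -0.54 ± 0.29), BIRC5 (-0.49 ± 0.34) and CENPA (-0.49 ± 0.33).

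After 24 h in DMSO, 13 of the 41 genes fell against untreated SW620 cells with ERB and 0 rose, where 3.76% of all genes fell and 2.39% rose (edgeR). With GC and length offsets 23 fell and 0 rose, where 10.6% of all genes fell and 12.4% rose. After estradiol, 3 genes fell against the same untreated libraries and 0 rose, where 0.67% of all genes fell and 1.06% rose, and with offsets 35 fell and 0 rose, where 8.85% fell and 9.19% rose. In the SW620 libraries alone with offsets, 32 genes fell and 2, CENPE and ASPM, rose after DMSO (23.3% of 16533 genes fell, 24.8% rose), and 40 fell after estradiol (19.6% fell, 20.5% rose). Both comparisons rest on the same 2 untreated libraries, and estradiol against untreated cells was added after the values were seen. On counts as deposited, leaving out any 1 of the libraries compared left no member called in either comparison. With offsets, fewer members fell in each such fit than with all libraries. The share of all genes in those fits is not given here, so they do not set the members apart. The summed CPM of the colon epithelium markers, most of it from KRT8 and KRT18, was also lower in the treated libraries. It stood at 4171 to 4739 CPM after DMSO and 6712 to 7652 CPM after estradiol, against 9457 to 9520 CPM in untreated cells with ERB. VIL1 (villin) was the 1 of 8 tested markers that fell after DMSO, and 0 fell after estradiol, on counts as deposited. Not all markers read lower. In TMM-scaled CPM, EPCAM read 161 and 133 untreated and 178 and 201 after DMSO, where CDH17 also read higher. CDX2 read 14.8 and 14.2 untreated and 28.5 and 30.0 after estradiol. Summed fibroblast markers stood at 3.97 to 4.16 CPM after DMSO, 2.26 to 2.50 after estradiol and 6.24 to 9.25 untreated. The part of these markers in the result was not tested.

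The median member stood at -0.60 (log2) after DMSO on counts as deposited and -1.05 with offsets, where the median of all genes was 0.00 and 0.07. After estradiol it stood at -1.58 and -1.39, where all genes stood at 0.00 and 0.02. GC content moved with these values: after DMSO the 24 members below 45% GC had a median of -0.07 and the 17 above it -1.65 on counts as deposited, and -0.80 and -1.25 with offsets. Pearson's r between the members' GC content and their log2 fold change was -0.82 after DMSO and -0.56 with offsets, and 0.51 and 0.17 after estradiol, given as a description over 41 genes that share the same libraries. The share of the GC trend in the DMSO values beyond what the offsets remove was not tested.

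**Figure D3:**
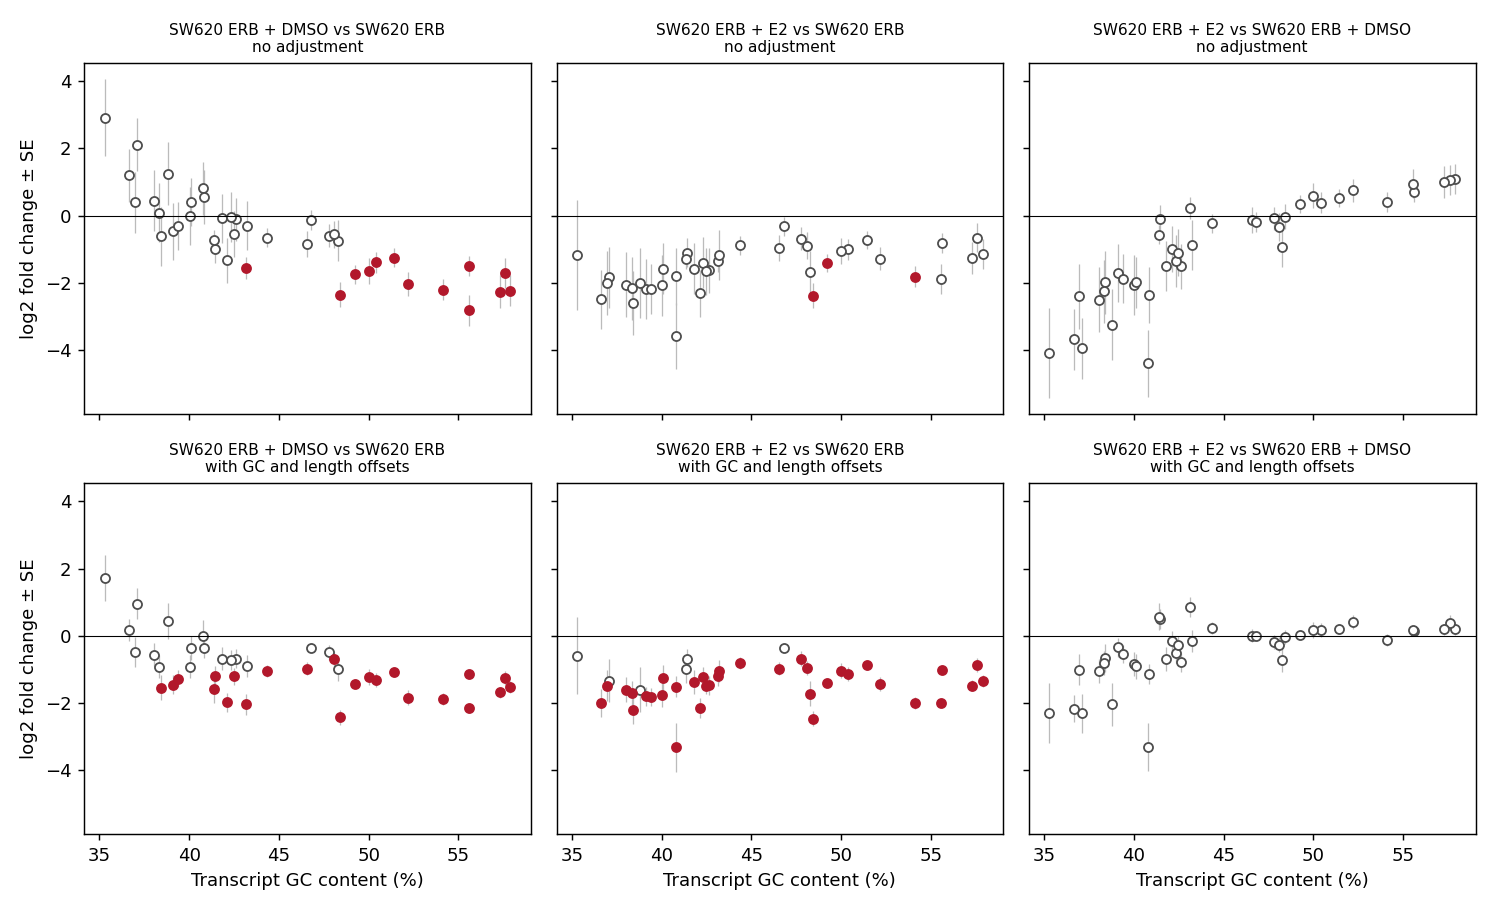
Log2 fold change ± SE of each of the 41 genes (vertical axis) against its transcript GC content in percent (horizontal axis) for DMSO against untreated, estradiol against untreated and estradiol against DMSO, without adjustment (top) and with GC and length offsets (bottom); red points were called at an adjusted p under 0.05. After DMSO 13 genes are red without and 23 with offsets, and the genes at lowest GC lie highest; after estradiol 3 and 35 are red and all 41 lie below 0.

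Of CDK1 and its mitotic partners, 5 of 6 genes fell after DMSO with offsets, 2 of them also on counts as deposited, and 5 of 6 fell after estradiol with offsets. CCNB1, cyclin B1, the partner with which CDK1 enters mitosis, read 566 and 629 CPM in untreated cells with ERB, 196 and 208 CPM after DMSO and 244 and 227 CPM after estradiol. All treated values lay below both untreated ones, a 2.96-fold lower level after DMSO (log2 -1.57 ± 0.32, SE, adjusted p = 0.0196) and 2.54-fold lower after estradiol (log2 -1.34 ± 0.32, adjusted p = 0.0573, past the threshold with offsets at 0.0152). CCNA2, cyclin A2, which acts in S phase and G2, read 33.9 and 32.0 CPM untreated, 13.2 and 12.9 after DMSO and 7.94 and 5.26 after estradiol, without overlap. Its change passed the test with offsets in both, at log2 -1.98 ± 0.29 (adjusted p = 0.000597) and -2.14 ± 0.30 (adjusted p = 0.000577). CDK1, the kinase itself, read 37.9 and 30.9 CPM untreated, 39.9 and 50.4 after DMSO and 8.86 and 8.21 after estradiol. It did not pass after DMSO on either scale (log2 0.39 ± 0.91, and -0.48 ± 0.44 with offsets), and fell after estradiol with offsets only (log2 -1.49 ± 0.46, adjusted p = 0.0413). CCNF, a cyclin that is the substrate receptor of an SCF ubiquitin ligase and the 13th of the called genes after DMSO (named after its values were seen), read 106 and 105 CPM untreated and 36.4 and 27.9 after DMSO.

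Of the mitotic kinases, AURKB and PLK1 fell after DMSO on counts as deposited, AURKA joined them with offsets, and all 5 fell after estradiol with offsets. AURKB, the Aurora kinase of the chromosomal passenger complex, read 219.6 and 233 CPM untreated, 34.1 and 29.8 after DMSO and 60.2 and 63.2 after estradiol. This 7.08-fold lower level after DMSO (log2 -2.82 ± 0.46, SE, adjusted p = 0.00829) was the largest decrease among the 41 genes in that comparison on counts as deposited. With offsets, where KIF20A had the largest at -2.42, it came to -2.15 ± 0.14 after DMSO and -1.99 ± 0.14 after estradiol. PLK1, Polo-like kinase 1, which acts from mitotic entry to cytokinesis, read 304 and 306 CPM untreated, 68.8 and 58.5 after DMSO and 119 and 134 after estradiol (log2 -2.26 ± 0.49, adjusted p = 0.0235, and -1.27 ± 0.47, adjusted p = 0.221). AURKA, the Aurora kinase of spindle poles, read 94.6 and 119.6 CPM untreated, 59.9 and 59.7 after DMSO and 59.5 and 50.2 after estradiol. The treated values of these 3 kinases lay below the untreated ones in every library. TTK, the checkpoint kinase also called MPS1 and named after its values were seen, had 57 and 38 reads untreated, 82 and 103 after DMSO and 4 and 3 after estradiol.

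Of the spindle checkpoint and anaphase-promoting complex genes, 7 of 8 fell with offsets after DMSO and 7 of 8 after estradiol. PTTG1, securin, the inhibitor of separase, read 121 and 144 CPM untreated, 35.6 and 43.1 after DMSO and 49.3 and 50.1 after estradiol, and fell in both tests on counts as deposited (log2 -1.75 ± 0.28, adjusted p = 0.00790, and -1.41 ± 0.28, adjusted p = 0.0280). CDCA3, which promotes destruction of the CDK1 inhibitor WEE1, read 81.9 and 87.5 CPM untreated, 20.0 and 16.7 after DMSO and 23.8 and 24.4 after estradiol and also fell in both (log2 -2.21 ± 0.31, adjusted p = 0.00670, and -1.81 ± 0.30, adjusted p = 0.0185). For both genes the treated libraries lay far below the untreated ones and close to each other. CDC20, the activator of the complex, read 321 and 316 CPM untreated, 67.9 and 67.7 after DMSO and 142 and 146 after estradiol. UBE2C, the ubiquitin-conjugating enzyme of the complex, read 196 and 191 CPM untreated, 62.7 and 61.2 after DMSO and 92.9 and 93.9 after estradiol. Both fell after DMSO on counts as deposited (adjusted p = 0.0179 and 0.0291), and after estradiol with offsets (adjusted p = 0.000391 and 0.00977). Near-identical copies make the reads of CDC20 and PTTG1 uncertain: CDC20P1 held 13418 reads over all libraries beside 78850 of CDC20, and PTTG3P held 4692 beside 31604 of PTTG1. The checkpoint subunit BUB1B, BUBR1, read 38.2 and 46.1 CPM untreated, 33.8 and 34.7 after DMSO and 22.2 and 15.2 after estradiol, and passed in the 16 libraries with offsets after estradiol only (log2 -1.04 ± 0.33, adjusted p = 0.0450; after DMSO -0.88 ± 0.33, adjusted p = 0.0665). In SW620 libraries alone with offsets BUB1B also fell after DMSO (log2 -0.90, adjusted p = 0.00126). BUB3, its partner, which is not a typical cell cycle-regulated transcript, read 197 and 199 CPM untreated, 118 and 122 after DMSO and 83.7 and 78.1 after estradiol, and passed with offsets after DMSO (log2 -1.57 ± 0.41, adjusted p = 0.0164) but not after estradiol (adjusted p = 0.111), where it fell in SW620 libraries alone with offsets (log2 -1.02, adjusted p = 0.00426).

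**Figure D4:**
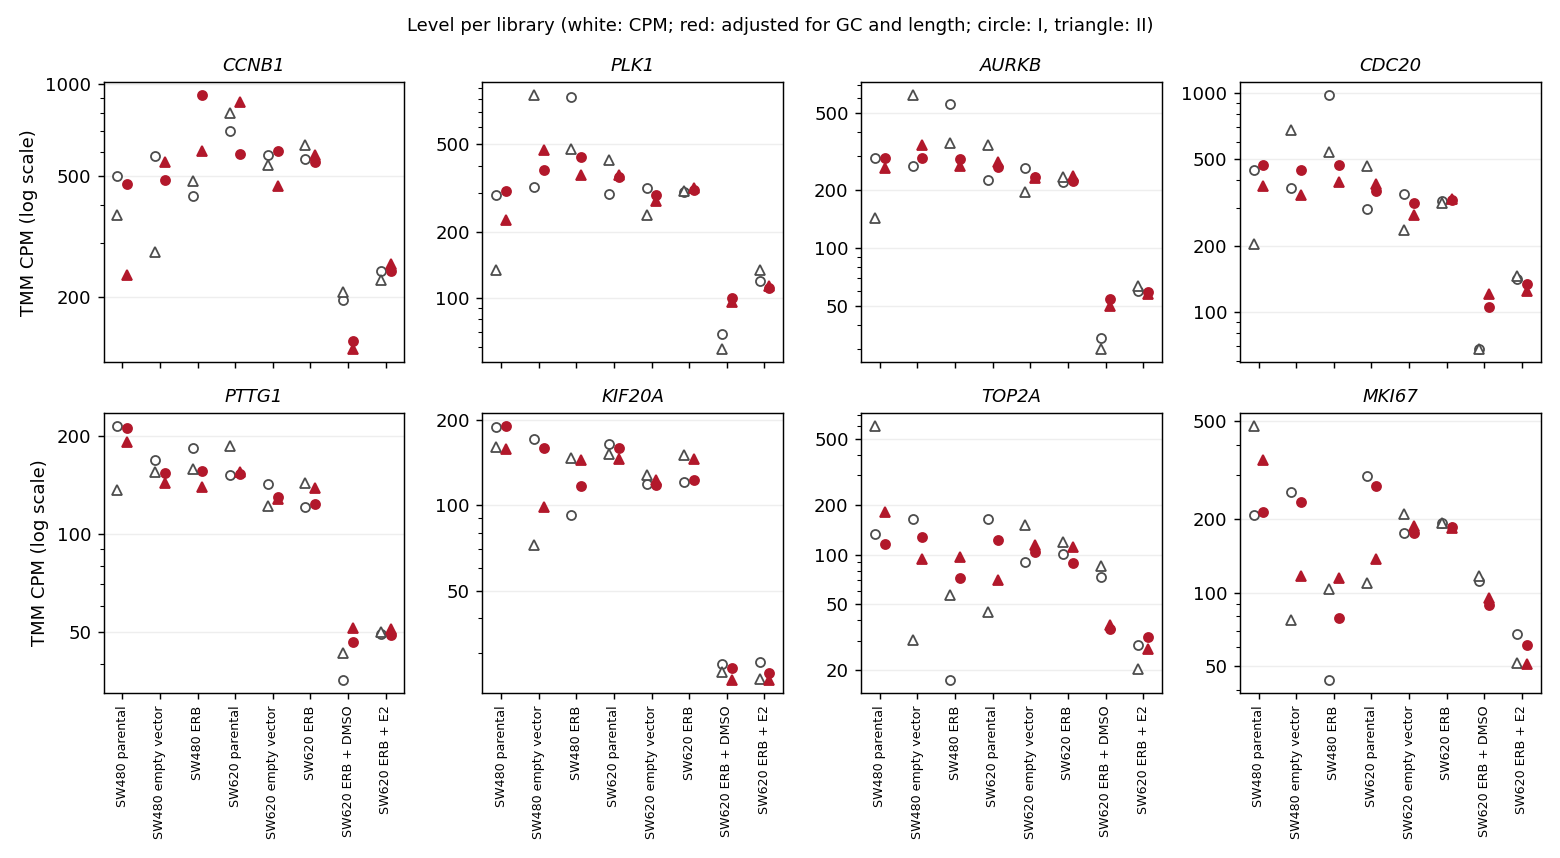
Levels of 8 of the genes in each of the 16 libraries, in TMM-scaled CPM on a log axis, by group as labelled (white, CPM; red, CPM adjusted for GC and length; circle, library I; triangle, library II). In CCNB1, PLK1, AURKB, CDC20, PTTG1 and KIF20A the 4 treated libraries lie below all 6 untreated SW620 libraries on both scales; in TOP2A and MKI67 they do so after adjustment.

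Of the centromere, kinetochore and passenger complex genes, BIRC5 and CDCA8, the passenger complex subunits survivin and borealin, fell after DMSO both without and with offsets, and 5 of 7 genes fell after estradiol with offsets. BIRC5 read 321 and 300.0 CPM untreated, 78.3 and 72.9 after DMSO and 127 and 129 after estradiol (log2 -2.04 ± 0.35, adjusted p = 0.0103, and -1.28 ± 0.34, adjusted p = 0.0828). CDCA8 read 149.6 and 154 CPM untreated, 65.4 and 62.1 after DMSO and 97.3 and 86.8 after estradiol (log2 -1.25 ± 0.27, adjusted p = 0.0243, and -0.72 ± 0.27, adjusted p = 0.225). CENPF, a large kinetochore protein, read 14.5 and 13.9 CPM untreated, 19.6 and 22.0 after DMSO and 4.76 and 3.32 after estradiol. The DMSO values of CENPF lay above the untreated ones and the estradiol values below them; the fall after estradiol passed with offsets (log2 -1.51 ± 0.30, adjusted p = 0.00514), the difference after DMSO did not (-0.38 ± 0.28, adjusted p = 0.357). CENPE, the kinetochore kinesin, has the lowest transcript GC content of the 41 genes. It had only 3 and 5 reads untreated, 29 and 38 after DMSO and 1 and 2 after estradiol. Neither difference passed the test in the 16 libraries, while in SW620 libraries alone with offsets CENPE rose after DMSO.

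Of the spindle assembly genes and motors, KIF20A and KIF2C fell after DMSO on counts as deposited, 4 of 10 with offsets, and 8 of 10 fell after estradiol with offsets. KIF20A, the kinesin MKLP2 that carries the passenger complex to the midzone, read 121 and 151 CPM untreated, 27.4 and 25.9 after DMSO and 27.8 and 24.3 after estradiol. It was 5.10-fold lower after DMSO (log2 -2.35 ± 0.38, SE, adjusted p = 0.00812) and 5.21-fold lower after estradiol (log2 -2.38 ± 0.38, adjusted p = 0.0147), and the 4 treated libraries lay within a narrow range. KIF2C, the microtubule-depolymerising kinesin MCAK, read 201 and 227 CPM untreated, 81.0 and 82.4 after DMSO and 112 and 100.4 after estradiol (log2 -1.39 ± 0.32, adjusted p = 0.0281, and -1.01 ± 0.31, adjusted p = 0.138). KIF11, the kinesin Eg5 that pushes spindle poles apart, read 23.1 and 22.5 CPM untreated, 22.2 and 26.3 after DMSO and 4.82 and 5.39 after estradiol. It fell after estradiol with offsets (log2 -1.71 ± 0.36, adjusted p = 0.00643); after DMSO its log2 fold change was 0.09 ± 0.89, and -0.91 ± 0.34 with offsets (adjusted p = 0.0667), and in SW620 libraries alone with offsets it fell, at -0.95 (log2, adjusted p = 0.0125). Of the cytokinesis genes ECT2 and ANLN, named after their values were seen, 0 of 2 passed after DMSO in the 16 libraries. In SW620 libraries alone with offsets 1 of 2 fell after DMSO. After estradiol 2 of 2 fell with offsets.

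Of the genes of chromosomes and transcription, FOXM1, the transcription factor that activates many G2 promoters, read 333 and 351 CPM untreated, 123 and 118 after DMSO and 198 and 193 after estradiol. Its fall passed after DMSO on counts as deposited (log2 -1.51 ± 0.30, adjusted p = 0.0179) and in both comparisons with offsets (-1.14 ± 0.14, adjusted p = 0.000200, and -1.01 ± 0.14, adjusted p = 0.000522). TOP2A, topoisomerase II alpha, which untangles sister chromatids, read 101 and 119.5 CPM untreated, 73.3 and 85.5 after DMSO and 28.3 and 20.2 after estradiol, and passed in both with offsets (log2 -1.45 ± 0.28, adjusted p = 0.00321, and -1.79 ± 0.29, adjusted p = 0.00128). MKI67 read 192 and 192 CPM untreated, 112 and 117 after DMSO and 68.0 and 51.8 after estradiol. It passed after estradiol with offsets (log2 -1.72 ± 0.36, adjusted p = 0.00675) and not after DMSO (adjusted p = 0.0594), where it passed in SW620 libraries alone with offsets (adjusted p = 0.00457). In all 3 genes the treated libraries lay below the untreated libraries with ERB.

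Other genes of the cell cycle were followed with lists of named genes. Over all genes tested, 3.76% fell and 2.39% rose after DMSO and 0.67% fell and 1.06% rose after estradiol on counts as deposited, and with offsets 10.6% fell and 12.4% rose and 8.85% fell and 9.19% rose, with medians of 0.07 and 0.02. Of 35 S phase replication factors, 14 fell after DMSO and 4 after estradiol on counts as deposited, and 31 and 32 with offsets, with medians of -1.38 and -1.24 with offsets and 0 called higher. Among them ORC1, an origin recognition subunit, fell in both comparisons without offsets (log2 -1.73 ± 0.27, adjusted p = 0.00790, and -1.45 ± 0.27, adjusted p = 0.0222), as did TYMS, thymidylate synthase (-2.14 ± 0.36, adjusted p = 0.00872, and -2.09 ± 0.36, adjusted p = 0.0186), and GINS2, a subunit of the replicative helicase (-2.37 ± 0.38, adjusted p = 0.00800, and -1.83 ± 0.37, adjusted p = 0.0336). Of 13 genes of the switch into mitosis, 1 fell after each treatment on counts as deposited and 8 after each with offsets (medians -0.79 and -0.78 with offsets). The gene called on counts as deposited was GTSE1, a microtubule-binding protein of G2 cells (log2 -1.54 ± 0.33, adjusted p = 0.0234, and -1.48 ± 0.33, adjusted p = 0.0470).

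Of 25 further kinetochore and checkpoint genes, 6 fell after DMSO and 2 after estradiol on counts as deposited, and 11 and 15 with offsets (medians -0.62 and -0.89). Of 22 further motors and spindle genes, 6 and 0 fell on counts as deposited and 9 and 14 with offsets (medians -0.82 and -1.10). Of 18 condensin, cohesin and separase genes, 3 and 0 fell on counts as deposited and 8 and 10 with offsets (medians -0.61 and -1.06). None of the genes of these 3 lists was called higher in either fit.

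Of the 14 genes of the DREAM and MuvB complexes, 1 fell after DMSO and 0 after estradiol on counts as deposited, and 4 after each with offsets (medians -0.21 and -0.40). Among these 4 was MYBL2, which encodes B-MYB (log2 -1.96 ± 0.21, adjusted p = 8.83e-05, and -1.85 ± 0.21, adjusted p = 0.000159, with offsets). Of 14 core subunits and partners of the anaphase-promoting complex, 0 were called on counts as deposited; with offsets 1 fell and 2 rose after DMSO and 2 fell and 1 rose after estradiol (medians -0.38 and -0.27). Of 12 CDK inhibitors and growth arrest genes, 3 fell and 2 rose after DMSO and 0 fell and 1 rose after estradiol on counts as deposited. With offsets the balance turned, with 1 lower and 3 higher after DMSO and 3 lower and 1 higher after estradiol (medians -0.25 and -0.38). CDKN2B, which encodes the CDK4 and CDK6 inhibitor p15, rose in both comparisons without offsets (log2 2.60 ± 0.44, adjusted p = 0.00915, and 2.13 ± 0.43, adjusted p = 0.0341). CDKN1A, which encodes the inhibitor p21 and was chosen after its values were seen, did not pass in either, at log2 -1.11 ± 0.45 (adjusted p = 0.140) and -0.35 ± 0.45 (adjusted p = 0.795). The lists, like the members, are no independent evidence, since earlier results of these data were known when they were chosen.

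Estradiol was compared directly with DMSO to ask whether the hormone moved the genes in cells with ERB. None of the 41 passed edgeR's test on counts as deposited, where 0% of genes were higher and 0% lower. At an unadjusted p under 0.05 there were 18 members, and DESeq2 called 3 lower. The shares of all genes at these thresholds are not given here, so these counts do not set the members apart. The split followed GC content: the median was -1.93 in the 24 members below 45% GC and 0.39 in the 17 above it, with r = 0.87 over 41 genes, the GC trend of the DMSO libraries being 1.75 and 2.56 and that of the estradiol libraries -0.21 and -0.82. With offsets 0 members passed and the median moved from -0.87 to -0.19. In the SW620 libraries alone with offsets, 10 members fell and 4 (CCNB1, CCNF, CKS2 and BIRC5) rose, where 7.97% of genes fell and 8.17% rose; leaving out 1 library left 0 to 2 called.

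By member, TTK had the largest difference, -4.39 (log2, adjusted p = 0.238), and -3.31 ± 0.72 (SE) with offsets, from 82 and 103 reads after DMSO and 4 and 3 after estradiol. ASPM, a spindle pole protein, differed by -3.94 ± 0.90 and HMMR, a spindle-binding hyaluronan receptor, by -3.68 ± 0.90. Both had non-overlapping libraries, with 9.79 and 11.8 CPM of HMMR after DMSO and 1.04 and 0.627 CPM after estradiol, and neither passed (adjusted p = 0.238 and 0.238). CENPE, on 29 and 38 reads after DMSO and 1 and 2 after estradiol, did not pass either (adjusted p = 0.238). In the other direction PLK1 differed by 0.99 ± 0.47 (adjusted p = 0.238) and AURKB by 0.95 ± 0.44 (adjusted p = 0.238), which came to 0.20 ± 0.17 and 0.16 ± 0.13 with offsets. CCNB1 and AURKA differed by 0.22 ± 0.32 and -0.12 ± 0.38 without offsets. The adjusted p-values here are those of 16 libraries without offsets. In SW620 libraries alone with offsets, 3 spindle assembly genes and motors, 3 centromere and kinetochore genes, 2 mitotic kinases, 1 cytokinesis gene and 1 mitotic cyclin or partner fell. There 3 of CDK1 and its partners and 1 gene of the centromere and passenger complex block rose. Over all genes 7.97% fell and 8.17% rose in that fit.

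In the libraries labelled SW480 the median member spread most, from -0.86 to 1.52 (log2 against the mean of 16 libraries), and from 0.23 to 0.86 with the adjustment. PLK1 in parental SW480 read 293 and 134 CPM, in cells labelled empty vector 319.8 and 837 CPM and in those labelled ERB 822 and 477 CPM. TOP2A was at 133 and 599 CPM in the parental pair, 164 and 30.4 in the vector pair and 17.4 and 56.7 in the ERB pair, so that libraries I and II lay far apart within each group. In these libraries PLK1 was high where TOP2A was low: SW480 empty vector II and SW480 ERB I, with GC trends of -2.99 and -3.34, held the highest PLK1 and the lowest TOP2A. Adjusted for GC and length, the parental pair read 307 and 227 CPM of PLK1, the vector pair 382 and 469 and the ERB pair 437 and 363. TOP2A so adjusted read 115 and 179.9, then 128 and 94.4, then 72.3 and 96.5 CPM in the same order, a narrower range than without adjustment.

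Parental SW620 against parental SW480 gave 5 genes lower and 0 higher in SW620. Over all genes 11.2% were lower and 6.84% higher, a share lower near that of the members. The members were thus not set apart by these 5 genes. They were TTK (log2 -4.21 ± 0.87, SE, adjusted p = 0.00548), ASPM (-4.03 ± 0.84, adjusted p = 0.00551), HMMR (-3.63 ± 0.86, adjusted p = 0.0121), CENPE (-3.94 ± 1.04, adjusted p = 0.0212) and CENPF (-2.75 ± 0.85, adjusted p = 0.0407), all with AT-rich transcripts. TTK read 2.91 and 1.01 CPM in SW620 and 8.89 and 64.6 CPM in SW480, and without SW480 parental II, the library with the GC trend of 2.82, 0 members were called; without SW620 parental II it was also 0. With offsets 12 were lower and 2 higher (19.6% and 15% of all genes), the median moving from -0.63 to -0.44. CCNB1, at 587 and 871 adjusted CPM in SW620 and 469 and 235 in SW480, was higher in SW620 with offsets (log2 1.05 ± 0.30, adjusted p = 0.0145).

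The libraries labelled SW480 empty vector against parental SW480 gave 9 genes lower and 2 higher, where 16% of all genes were lower and 14.9% higher. The lower genes were ASPM, TTK, HMMR, CENPE, CENPA, MAD2L1, CKS2, CCNA2 and CENPF, and the higher ones PLK1 (log2 1.44 ± 0.47, SE, adjusted p = 0.0387) and CCNF (1.33 ± 0.44, adjusted p = 0.0389). CENPA, the centromeric histone, read 61.3 and 46.3 CPM in parental cells and 27.7 and 13.9 with empty vector (log2 -1.37 ± 0.34, adjusted p = 0.0122). CKS2, a CDK1-binding subunit, read 217 and 133 CPM in parental cells against 108 and 34.8 CPM (log2 -1.29 ± 0.42, adjusted p = 0.0377), and MAD2L1, the checkpoint protein MAD2, 38.8 and 80.5 against 19.4 and 3.01 CPM (log2 -2.40 ± 0.74, adjusted p = 0.0298). With offsets 14 were lower and 4 higher, where 22% and 19.1% of all genes were. The counts rest on single libraries. More members were called without SW480 empty vector I or SW480 parental I, and fewer without SW480 empty vector II or SW480 parental II. The share of all genes in those fits is not given here, so they do not set the members apart. Since the libraries labelled empty vector carry little of the SW480 parental pattern, vector, line and trend cannot be told apart here. No member passed the test of a difference in vector effect between lines on counts as deposited (edgeR, 0 called). There were 7 at an unadjusted p under 0.05, and DESeq2 called 3 lower. With offsets the difference passed for 7, some higher and some lower. The shares of all genes in this contrast are not given here, so these counts do not set the members apart.

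The libraries labelled SW480 ERB against those labelled SW480 empty vector gave 0 called members, where 0% of genes were lower and 1.1% higher. At an unadjusted p under 0.05 there were 3 members (TTK, CENPF and HMMR, all lower), 6 with offsets, and DESeq2 called 0. The share of all genes at an unadjusted p under 0.05 is not given here. The CENPF level was 27.6 and 7.68 CPM in vector libraries and 1.82 and 6.57 CPM in ERB libraries (log2 -2.05 ± 0.85, SE, adjusted p = 0.449; with offsets -1.22 ± 0.32, adjusted p = 0.0604). ASPM, the fourth gene without overlap by size, read 3.08 and 1.56 CPM with empty vector against 1.14 and 0.917 CPM with ERB. CCNB1 read 580.3 and 280.2 against 428 and 482 CPM and MKI67 256 and 77.4 against 44.0 and 104 CPM, with overlapping groups for both. The median of -0.39 moved to -0.12 with offsets, and to 0.36 without SW480 empty vector I. No member passed the test of a difference in ERB effect between lines as labelled either (edgeR, 0 called with and without offsets). There was 1 at an unadjusted p under 0.05, and DESeq2 called 0. The libraries labelled SW480 ERB carry more of the SW480 parental pattern than those labelled SW480 empty vector. ERB and line therefore cannot be told apart in this comparison, nor in the difference between lines built on it.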

How the data were processed

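Poly(A) RNA of 16 libraries was prepared with a stranded mRNA kit, per the labels' protocols. The authors deposited raw read counts per gene and FPKM values (fragments scaled to transcript length and library size) as 2 tables of all libraries. The submitters' processing notes name TopHat2 2.0.4, SAMtools, Picard 1.29, HTSeq 0.6.1, Cufflinks 2.1.1 and build GRCh37; their roles and the use of strand in counting are not given in the sources used here. No column of other samples and no line without a gene was found.

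Counts were tested with edgeR 4.0.16 (R 4.3.3): genes with low counts were filtered with filterByExpr, 17464 genes were kept, libraries were scaled by TMM (factors 0.585 to 1.36), and 1 quasi-likelihood model of 8 groups without a replicate block was fitted. Tests were two-sided, with Benjamini-Hochberg adjustment over all genes tested and calls at an adjusted p under 0.05. CPM are counts scaled to the TMM-adjusted library total, with 0.5 added before log2 where log values are given. Offsets came from natural splines (5 degrees of freedom each) of each library's log2 deviation from the mean of libraries on transcript GC content and log2 length, taken from the longest protein-coding transcript in GENCODE 29 and known for 98% of genes tested. They remove the part of any change that follows this smooth trend with GC content or length, whatever its cause. A dependence on GC content among the members can remain after them. The scripts were tested on simulated counts. DESeq2 1.42.0, limma 3.58.1 (voom, and trend on log2(FPKM + 1)), other filters and scalings, fits of fewer libraries and leaving out libraries were alternatives. Libraries I and II differed by more than counting noise in every group.

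The members and the gene lists were chosen with earlier results of these data known. Genes named are CDK1, CCNB1, CCNA2, PLK1, AURKA, AURKB, BUB1B, TOP2A, MKI67, FOXM1, CENPE, CENPF, KIF11, UBE2C and BUB3, up to 12 called members per direction by smallest p, where none was called the 4 with the largest change among those whose groups did not overlap, and up to 4 genes of another list; any other was chosen after its values were seen. Promoters came from RefSeq (GRCh38.p14), which is not the build of the tables; no coordinates of the tables were used.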

Additional observations from a re-analysis of the deposited data

How the results depend on the processing

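Counts of called members moved with the offsets, the libraries fitted, the filter and the tool, and the cause was not tested. The share of all genes called moved too. After DMSO 3.76% of genes fell in the main fit and 23.3% in SW620 libraries alone with offsets. That share is not given beside each count in this section, so the counts describe the settings and do not set the members apart. After DMSO, 13 became 23 with offsets, 30 in the 2 groups alone and 23 in SW620 libraries alone. With offsets there it became 34, of which CENPE and ASPM were higher. After estradiol against untreated cells, 3 became 5 with RLE size factors, 5 with a minimum of 1 CPM in 4 libraries, 5 with limma-voom, 6 with limma-trend on FPKM, 13 with DESeq2, 22 without a low-count filter, 35 with offsets, 40 in the 2 groups alone, 37 in SW620 libraries alone and 40 there with offsets. None of these 10 alternatives called a member higher. Estradiol against DMSO went from 0 to 3 with DESeq2, 15 without the filter, 31 in the 2 groups alone (8 higher, 23 lower), 28 in SW620 libraries alone (8 higher, 20 lower) and 14 there with offsets. Between the parental lines 5 became 16 without the filter, 8 with DESeq2, 2 with limma-trend, 14 with offsets and 0 in the 2 groups alone. For vector against parental cells labelled SW480, 11 became 24, 20, 18 and 4 under no filter, DESeq2, offsets and the 2 groups alone, 0 in 1 line and 5 there with offsets, and for SW620 0 became 2 there. The ERB comparison labelled SW480 went from 0 to 8 without the filter and to 24 against parental cells. The difference of the vector effect between lines went from 0 to 14 without the filter, 3 with DESeq2, 1 with limma-trend and 7 with offsets. KIF11 after DMSO turned from 0.09 to -0.95 (log2, edgeR adjusted p = 0.0125) in SW620 libraries alone with offsets.

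Leaving out each library in turn gave 0 to 9 members between the parental lines (9 without SW480 parental I, 3 without SW620 parental I) and 1 to 32 for the vector labelled SW480, 7 to 27 with offsets and 0 to 9 with offsets in 1 line. It gave 0 to 25 for the difference of the vector effect (25 without SW480 empty vector I, 5 without SW480 parental I). After DMSO it gave 0 in each case, 18 to 19 with offsets and 29 to 31 in 1 line with offsets. After estradiol it gave 0, 16 to 24 and 36 to 38, and for estradiol against DMSO 0, 0 and 0 to 2. The vector in SW620 gave 0 to 14 in 1 line with offsets (14 without SW620 parental I), ERB labelled SW480 0 to 1 with offsets, and ERB in SW620 and the difference of the ERB effect 0. A group left with 1 library took its spread from the rest. Of single gene values, 1728 stayed on their side of the threshold, 194 passed it anew, 150 no longer passed, and 173 without a test moved. Few reads limit CENPE, NUF2, ASPM, TTK and HMMR.

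The differences between libraries I and II, in log2 CPM without adjustment, correlated from -0.81 to 0.73 over 28 pairs of groups, 9 of them above 0.1. The GC trends of the libraries enter these values, so they cannot tell whether the numbers I and II pair the libraries. With the replicate block the count was 3 between the parental lines and 6 for the vector labelled SW480. With the block and offsets together it was 14, 17, 23 after DMSO, 31 after estradiol against untreated cells and 7 for the difference of the vector effect.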
